A study of Mus musculus with 6 samples.

Results

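The cytosolic ribosome is built from ribosomal RNA and a fixed set of small, basic ribosomal proteins, and the messenger RNAs for these proteins are among the shortest and most abundant in most cells. Their genes were taken by symbol: Rpl or Rps followed by a number and optional letters, together with Rplp0, Rplp1, Rplp2 and Rpsa, without pseudogenes (names with -ps) and without the Rps6k kinases. The rule gave 86 genes of the 56748 in the tables, 53 of the large subunit and 33 of the small subunit. Of these, 82 had enough counts to be tested, and the 4 that did not were the paralogs Rpl3l, Rpl10l, Rpl32l and Rpl39l.

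Whole-tissue RNA was taken at 1600 h of pregnancy day 4, when the mouse uterus is becoming receptive to the embryo. The series design calls the tissue endometrium, although smooth muscle markers were present in all 6 libraries (values below). The 3 libraries labelled Zip10 cKO carry a conditional knockout, specific to the uterus, of the zinc transporter Zip10 (gene Slc39a10), and the 3 Control libraries are labelled WT. The sources used here name neither the Cre driver nor the deleted exons, strain or age, nor whether a library is 1 animal. The p-values therefore measure the spread between these samples, which may be technical.

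The libraries held 19643093 to 22328343 counts in Zip10 cKO and 20176528 to 22809577 in Control. Slc39a10 itself was at 39.5, 72.5 and 79.8 CPM (counts scaled to library size with TMM factors) in Zip10 cKO and 54.6, 70.4 and 66.2 CPM in Control, a log2 fold change of 0.00 ± 0.24 (SE; edgeR adjusted p = 0.998). A gene total also counts exons that remain, so it does not check the genotype labels, and directions are those of the libraries as labelled. Mitochondrial transcripts took 3.43% of the counts in Zip10 cKO 1 and 4.50% to 4.84% in the other 5. Markers of all tested cell types were present and 0 were at 0 counts. For the ribosomal protein genes Zip10 cKO 1 and Control 1 stood apart from the other 4 libraries, so the median, the counts and the main named members are also given below without them.

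Ribosomal protein mRNAs usually carry a terminal oligopyrimidine (TOP) tract, a C followed by further pyrimidines at the very 5′ end. Through this tract the mTORC1 kinase and the RNA-binding protein LARP1 set their translation together, and the cell holds the proteins in near equal amounts by degrading unassembled copies. In the pregnant uterus these transcripts are made by all cell types, so they report on the whole tissue rather than on one compartment.

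The start regions are shown for 7 members whose Zip10 cKO libraries all lay below the Controls (values below) and whose promoter is in the RefSeq table, as the place where the TOP tract would begin. Each line holds 30 bases, 15 before and 15 from the annotated start, with the longest run of C and T in capitals (GRCm38.p6).
Rpl38 (chr11:114668565-114668594, plus strand): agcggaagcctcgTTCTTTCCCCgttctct
Rps27 (chr3:90213634-90213663, minus strand): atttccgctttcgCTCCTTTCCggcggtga
Rps26 (chr10:128626492-128626521, minus strand): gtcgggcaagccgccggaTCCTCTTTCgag
Rps28 (chr17:33824548-33824577, minus strand): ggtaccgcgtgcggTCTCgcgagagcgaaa
Rpl28 (chr7:4792950-4792979, plus strand): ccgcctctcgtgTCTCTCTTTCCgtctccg
Rps6 (chr4:86857353-86857382, minus strand): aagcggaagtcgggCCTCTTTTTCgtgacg
Rplp0 (chr5:115559452-115559481, plus strand): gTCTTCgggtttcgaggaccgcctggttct

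In 5 of these windows a run of at least 9 pyrimidines spanned or lay just after the annotated start, whereas Rps28 and Rplp0 held runs of 4 and 5. The windows shown were picked by group values, and runs of at least 9 were not counted over other members or genes. Of the 86 members, 64 had an entry, and the first one per gene was used. A run of at least 6 pyrimidines stood in 36 member windows (56.2%) and in 29.0% of the windows of all other genes in that table. The motif CTTTC was found on the gene's strand in 17 member windows (26.6%) and in 3.92% of the others, and on either strand in 28.1% and 7.29%. CTTCC, which can overlap it, was found on the gene's strand in 18.8% and 6.78%, and on either strand in 29.7% and 13.8%. Over the whole 300 bases, CCGGAAG, a sequence bound by ETS family factors, stood on either strand in 24 member promoters (37.5%) and in 9.05% of the others. These matches describe the letters and do not show a site in use.

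Together the members made up a large share of the transcript pool. In the deposited TPM (a level per transcript length that sums to the same total in each library) they held 18.8%, 20.2% and 21.7% in Zip10 cKO libraries 1, 2 and 3, and 22.9%, 21.0% and 20.5% in Control libraries 1, 2 and 3. Zip10 cKO 1 was the lowest library, Control 1 the highest, and the groups overlapped. The means were 20.2% ± 1.42 in Zip10 cKO and 21.5% ± 1.24 in Control (SD, n = 3 each), a difference no larger than the SD of either group. In bulk tissue, fewer cells of a type and less RNA per cell cannot be told apart. Because the transcripts are short, the same genes took a smaller share of the counts, from 6.35% to 7.56% in Zip10 cKO and from 7.26% to 8.44% in Control. Large subunit members had 1.22 to 1.23 times the summed TPM of small subunit members in Zip10 cKO libraries and 1.22 to 1.24 times in Controls.

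**Figure D1:**
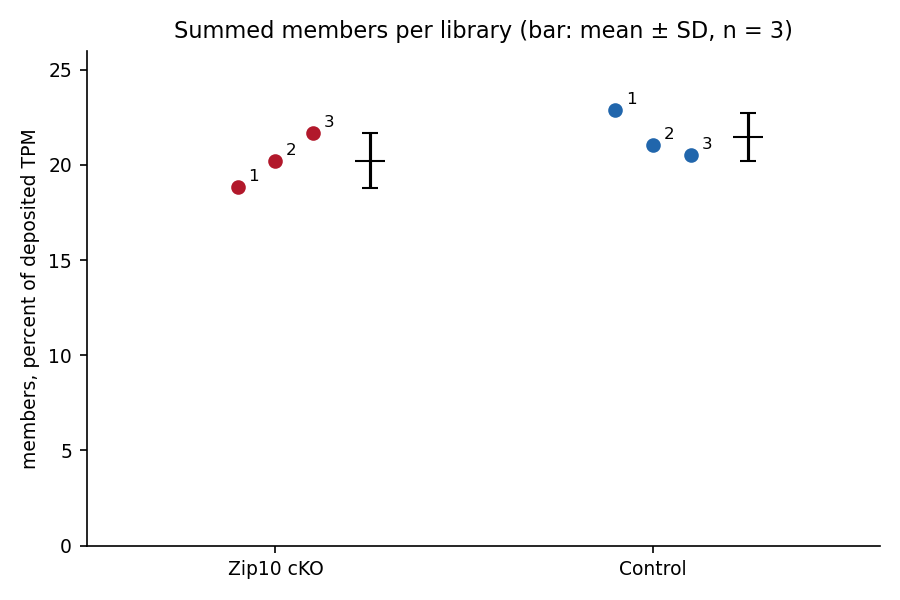
Share of the deposited TPM held by the 86 members in each library (points, numbered by library), with the mean and SD of 3 libraries per group beside them; the axis starts at 0. Zip10 cKO libraries lie between 18.8% and 21.7% and Control libraries between 20.5% and 22.9%, so the groups overlap.

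Members differed in level far more than libraries did. The order of the members by TPM was nearly the same in each library, with a lowest Spearman rho of 0.966 between any 2 libraries over 82 members, which share the same counting and gene lengths. Among the 82 tested members 76 averaged at least 1000 TPM. The highest was Rps27, a zinc finger protein of the small subunit, at 7738 ± 767 TPM in Zip10 cKO and 8873 ± 948 TPM in Control. Rpl41, a very small peptide of the large subunit, followed at 6969 ± 838 and 7387 ± 479 TPM in Zip10 cKO and Control, and Rplp1, an acidic protein of the stalk that recruits elongation factors, at 6899 ± 345 and 7360 ± 472 TPM. Rpl13a, which also acts in interferon-induced translational silencing in human cells, was at 6869 ± 984 TPM in Zip10 cKO and 6910 ± 619 TPM in Control (SD, n = 3 each throughout). For each of these 4 genes the means differed by less than the sum of the 2 SDs.

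The 6 tested members under 1000 TPM were all paralogs or retrocopies by name: Rpl36al at 657 TPM, Rps27l at 345, Rpl37rt at 223, Rps27rt at 125, Rps4l at 25.5 and Rpl6l at 19.5 TPM, as means of 6 libraries. Each lay below the gene it resembles. Rpl36a stood at 2065 TPM and its paralog Rpl36al at 657 TPM, and Rps4x, the X-linked copy of the small subunit protein eS4, at 3042 TPM. Rpl3l, a form of Rpl3 known from heart and skeletal muscle, had 2 to 3 counts in Zip10 cKO libraries and 4 to 11 in Controls, while Rpl3 had 1578 TPM. Rpl39l, a form of Rpl39 known from testis, had at most 5 counts in any library, and Rpl32l at most 1. Rpl10l, a testis retrogene that replaces Rpl10 in germ cells, had 0 counts in all 6 libraries, which allows up to 0.131 to 0.153 CPM, here without TMM factors (3 counts per library, counting error only).

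The comparison of the groups asked whether these genes differ when Zip10 is deleted in the uterus. With edgeR's quasi-likelihood test and a threshold of 0.05 on the adjusted p, 0 members were called, as were 0% of the 16737 genes tested. All 82 tested members had a fitted log2 fold change below 0 in Zip10 cKO over Control, against 50.6% of all genes tested. On the TPM scale 77 did so, against 38.8% of all genes. Once each library's length trend was removed 75 did so, against 54.9% of all genes. Their median log2 fold change was -0.14, a fold of 0.907, beside a median of -0.00 over all genes. The smallest adjusted p among members was 0.747 (edgeR). At an unadjusted p under 0.05 edgeR gave 2 members, Rps4l and Rps26, both lower, or 2 of 82 where 1.98% of all genes were lower at that level. DESeq2 called 0 members, where 0.208% of the genes with an adjusted p were called, and 5 members, all lower, had an unadjusted p under 0.05 against 1.37% of genes lower at that level.

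The median SE of a member's log2 fold change was 0.12, and 6 members had a log2 fold change larger in size than 2 SE. Of these only Rps4l and Rps26 had an unadjusted edgeR p under 0.05. The same count was not made over all genes, so it does not set the members apart. Across members the log2 fold changes had an SD of 0.08, with quartiles of -0.17 and -0.10, while the 1959 other genes with a mean of at least 100 CPM had an SD of 0.21 and a median of 0.02. The 33 small subunit members had a median of -0.14 and the 49 tested large subunit members one of -0.15.

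**Figure D2:**
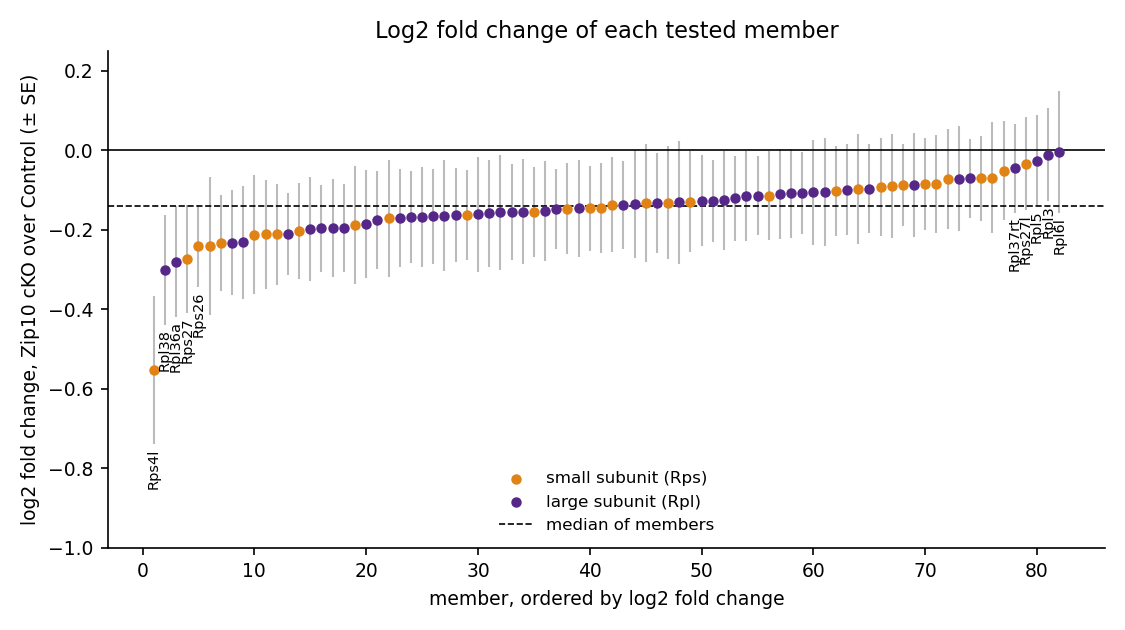
Log2 fold change of each of the 82 tested members, Zip10 cKO over Control, with SE bars, ordered from lowest to highest and coloured by subunit; the dashed line is the median, -0.14, and the 5 members at each end are named. All points lie below 0 on this scale (77 on the TPM scale), from -0.55 for Rps4l to -0.00 for Rpl6l.

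The per-library values show where the shift lay. Relative to the mean of the 6 libraries on the log2 CPM scale, the members averaged -0.19, -0.04 and 0.01 in Zip10 cKO libraries 1, 2 and 3, and 0.22, 0.01 and -0.02 in Control libraries 1, 2 and 3. Zip10 cKO 1 held the lowest value of 70 members and Control 1 the highest value of 76. The other 4 libraries lay between -0.04 and 0.01, with the groups interleaved. Of the total squared deviation of the members, 80.0% lay on 1 axis, so the members moved together from library to library. The same share was not computed for other genes, so it does not set the members apart.

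Without Zip10 cKO 1 the median log2 fold change was -0.09, with 76 of 82 members lower, against 51.1% of all genes. Without Control 1 it was -0.07, with 72 lower, against 50.2% of all genes. With both left out it was -0.01, with 46 of 82 lower, against 50.8% of all genes lower in the same libraries. These 2 libraries were left out because they were extreme in these genes, after the data were seen, so a smaller difference follows in part from the choice. Leaving out Control 3 instead gave the largest shift, -0.20. No member was called with any 1 library left out in edgeR's quasi-likelihood test.

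**Figure D3:**
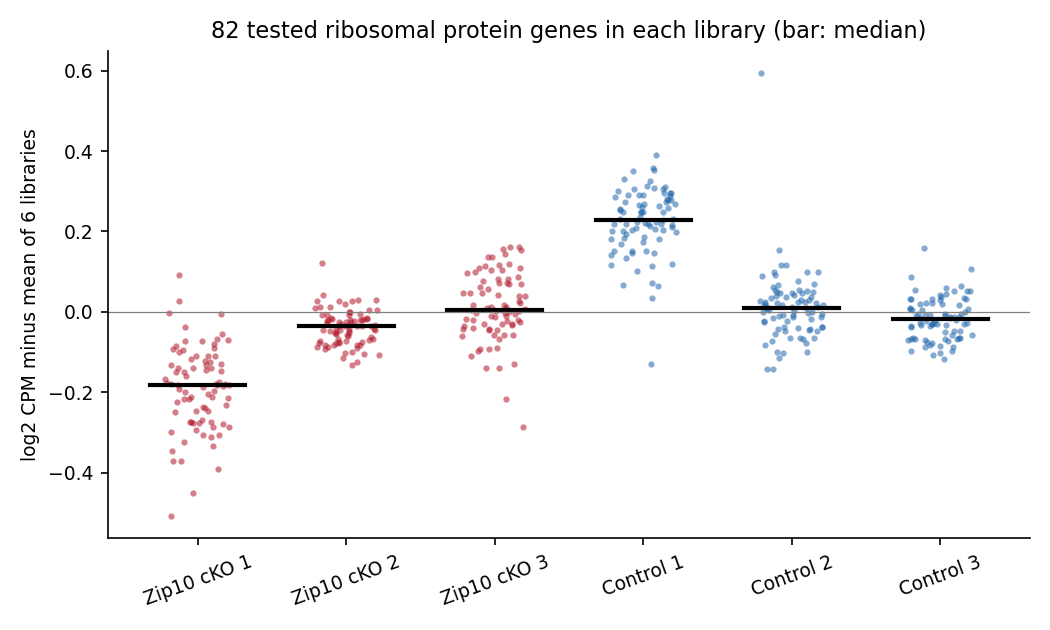
Log2 CPM of each of the 82 tested members minus its mean over the 6 libraries (points), with the median of the members in each library as a bar. The medians are -0.18, -0.04 and 0.01 in Zip10 cKO 1 to 3 and 0.23, 0.01 and -0.02 in Control 1 to 3, so Zip10 cKO 1 and Control 1 lie apart from the other 4; the single high point in Control 2 is Rps4l.

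For 13 of the 82 tested members all Zip10 cKO libraries lay below all Controls, against 5.78% of all genes tested. For 0 members they all lay above, against 6.93% of all genes. Among the other genes of the shortest length class (141 to 1349 bases), where 80 of the 82 members fall, 10.2% lay below in this way. The 13 members included Rps4l, Rpl38, Rps27, Rps26, Rpl23a, Rps28, Rpl30, Rplp1, Rpl28, Rps6, Rpl29 and Rplp0. With 1 library left out, groups of 3 and 2 separate more often, so each count stands beside the share over all genes in the same libraries. It was 35 of 82 without Zip10 cKO 3 (12.2% of all genes), 30 without Control 3 (12.9%), 22 without Control 2 (9.69%), 19 without Zip10 cKO 2 (13.9%), 17 without Control 1 (10.9%) and 13 without Zip10 cKO 1 (9.32%). With Zip10 cKO 1 and Control 1 both left out it was 16 of 82, against 15.9% of all genes.

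Rps26, a small subunit protein at the mRNA exit channel, had 705, 751 and 749 CPM in Zip10 cKO libraries and 929, 856 and 823 CPM in Controls. The groups did not overlap, and Control 1 was the highest library. Its log2 fold change was -0.24 ± 0.10 (SE; edgeR adjusted p = 0.747), and its fold of 0.846 had a 95% interval from 0.719 to 0.995 without correction for the number of genes. The log2 fold change was -0.17 with Zip10 cKO 1 and Control 1 left out.

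Rpl38, a small protein at the surface of the large subunit whose loss changes the axial skeleton in mice, had 417, 541 and 507 CPM in Zip10 cKO libraries and 688, 565 and 551 CPM in Controls. Zip10 cKO 1 was low and Control 1 high, and the other 4 lay between 507 and 565 CPM. Its log2 fold change was -0.30 ± 0.14 (edgeR adjusted p = 0.747), with a 95% interval of the fold from 0.652 to 1.01. Rps27 was likewise lowest in Zip10 cKO 1 and highest in Control 1, at 753, 878 and 918 CPM in Zip10 cKO and 1191, 966 and 926 CPM in Control, with a log2 fold change of -0.27 ± 0.14. Rpl36a, at the tRNA exit site of the large subunit, had 354, 466 and 451 CPM in Zip10 cKO and 574, 503 and 465 CPM in Control, where Zip10 cKO 2 and Control 3 met. Its log2 fold change was -0.28 ± 0.14, and that of its paralog Rpl36al was -0.23 ± 0.13. With Zip10 cKO 1 and Control 1 left out, the log2 fold changes were -0.098 for Rpl38, -0.080 for Rps27, -0.086 for Rpl36a and -0.092 for Rpl36al.

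Rps6, the small subunit protein that S6 kinase phosphorylates, had 1174, 1199 and 1219 CPM in Zip10 cKO libraries and 1448, 1260 and 1266 CPM in Controls. The groups were separate, but the gap between Zip10 cKO 3 and Control 2 was small beside the distance of Control 1 from the other Controls. The log2 fold change was -0.15 ± 0.11 (edgeR adjusted p = 0.780), and -0.069 with Zip10 cKO 1 and Control 1 left out.

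The stalk proteins bind the translation factors that act on the ribosome. Rplp0, the base of the stalk, had 2218, 2339 and 2419 CPM in Zip10 cKO and 2613, 2450 and 2450 CPM in Control, a log2 fold change of -0.11 ± 0.10. Rplp1 had 1442, 1602 and 1615 CPM in Zip10 cKO and 1952, 1659 and 1619 CPM in Control, a log2 fold change of -0.17 ± 0.12. Both had separate groups, though Zip10 cKO 3 and Control 3 nearly met for Rplp1. Rplp2, which pairs with Rplp1, overlapped between groups at 447, 575 and 546 CPM in Zip10 cKO and 689, 626 and 526 CPM in Control, a log2 fold change of -0.23 ± 0.14. Without Zip10 cKO 1 and Control 1 the values were -0.048 for Rplp0, -0.033 for Rplp1 and -0.046 for Rplp2.

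Rpsa, the laminin receptor precursor and a small subunit protein, had 2122, 1973 and 2132 CPM in Zip10 cKO and 2344, 2072 and 2123 CPM in Control. Its groups overlapped, and the log2 fold change was -0.07 ± 0.11, or -0.037 with Zip10 cKO 1 and Control 1 left out. Rps27a, made as a fusion with ubiquitin, overlapped as well, at 673, 725 and 779 CPM in Zip10 cKO and 896, 734 and 687 CPM in Control (log2 fold change -0.09 ± 0.13, or 0.076 with those 2 libraries left out).

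Rps4l was the member with the lowest log2 fold change, at -0.55 ± 0.19 (edgeR unadjusted p = 0.0168, adjusted p = 0.747). It had 12.5, 17.6 and 14.7 CPM in Zip10 cKO libraries and 19.4, 27.1 and 19.3 CPM in Controls, so all Zip10 cKO libraries were lower, and Control 2 rather than Control 1 was the highest. It rests on 264 to 382 counts in Zip10 cKO libraries and 408 to 548 in Controls, and its counts were whole numbers. Its log2 fold change was -0.53 with Zip10 cKO 1 and Control 1 left out. Rps4x, the far more abundant copy, gave -0.10 ± 0.11, or 0.0009 with both left out.

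At the other end, Rpl3, at the peptidyl transferase centre, had 1317, 1317 and 1570 CPM in Zip10 cKO and 1505, 1358 and 1374 CPM in Control, a log2 fold change of -0.01 ± 0.12. Rpl5, which forms the 5S particle that binds Mdm2, gave -0.03 ± 0.12. Rps27l, a paralog of Rps27 known as a p53 target, had 86.1, 76.0 and 78.3 CPM in Zip10 cKO and 94.7, 73.3 and 78.2 CPM in Control, a log2 fold change of -0.03 ± 0.12. Rpl4, with Rpl3 and Rplp0 among the 3 longest members, gave -0.07 ± 0.10, Rpl10, which completes the large subunit, -0.12 ± 0.11, and Rpl39, at the exit tunnel, -0.16 ± 0.14. Rpl37rt and Rpl6l gave -0.05 ± 0.11 and -0.00 ± 0.15. For Rpl3, Rpl6l and Rps27l the sign turned positive on the TPM scale, at 0.06, 0.06 and 0.04, and for Rpl3, Rpl5, Rpl6l and Rps27a it did so with the length trend removed, so no direction is given for these 5. With Zip10 cKO 1 and Control 1 left out, Rpl39 was at 0.054 and Rpl37rt at 0.0096, and Rpl37rt was also positive, at 0.0087, without Zip10 cKO 1 alone. Rpl4 and Rpl10 were at -0.047 and -0.083 with both left out.

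Ribosomal protein genes have many processed pseudogenes, and reads that fit several genes were split among them in the deposited counts. Only 11 of the 82 tested members had counts within 0.005 of a whole number in all 6 libraries, against 70.8% of all genes tested. The median log2 fold change was -0.14 in these 11 and -0.15 in the 71 others. Of 300 annotated Rpl and Rps pseudogenes 52 were tested. The summed counts of all 300 were 0.530 to 0.616 per 100 member counts in Zip10 cKO and 0.499 to 0.614 in Control. The 52 tested had a median log2 fold change of -0.12, with 39 lower and 13 higher, where 50.6% of all genes were lower. edgeR called 0 of them, and 2 were lower at an unadjusted p under 0.05, against 1.98% of all genes. Those with the smallest p were Rpl38-ps2 at -0.85 ± 0.31, Rpl27-ps3 at -0.80 ± 0.32 and Rps2-ps10 at -0.24 ± 0.13, whose reads could belong to the parent genes.

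Gene length moved with the comparison. The tested members had a median length of 662 bases, against 2415 over all genes tested, in the abundance-weighted length of the deposited tables. The tested genes were split by length into 5 classes of equal size. The 3270 other genes in the shortest class had a median log2 fold change of -0.10, with 68.3% lower, and the 80 members in that class had one of -0.15. In the longest class the median was 0.11. Among the members, the 41 shorter (347 to 660 bases) had a median of -0.16 and the 41 longer (664 to 1490 bases) one of -0.12. Over the 82 members the log2 fold change and log2 length had a Pearson r of 0.24 and a Spearman rho of 0.33, as a description, since the members share the libraries. Over all genes tested the Spearman rho was 0.30, so the link to length was not particular to the members.

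Control 1 stood apart for other short genes as well. The other short genes deviated by a median of 0.17 in Control 1, and by -0.06, -0.02 and -0.04 in Zip10 cKO libraries 1, 2 and 3 and -0.03 and 0.02 in Control libraries 2 and 3. Zip10 cKO 1, where the members were lowest at -0.19, showed a smaller deviation for the other short genes. After each library's trend on length was removed, the median log2 fold change of the members was -0.08, with 75 of 82 lower. Over all genes it was -0.02, with 54.9% lower. On the TPM scale the members had a median of -0.08 with 77 lower, where all genes had one of 0.05 with 38.8% lower.

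**Figure D4:**
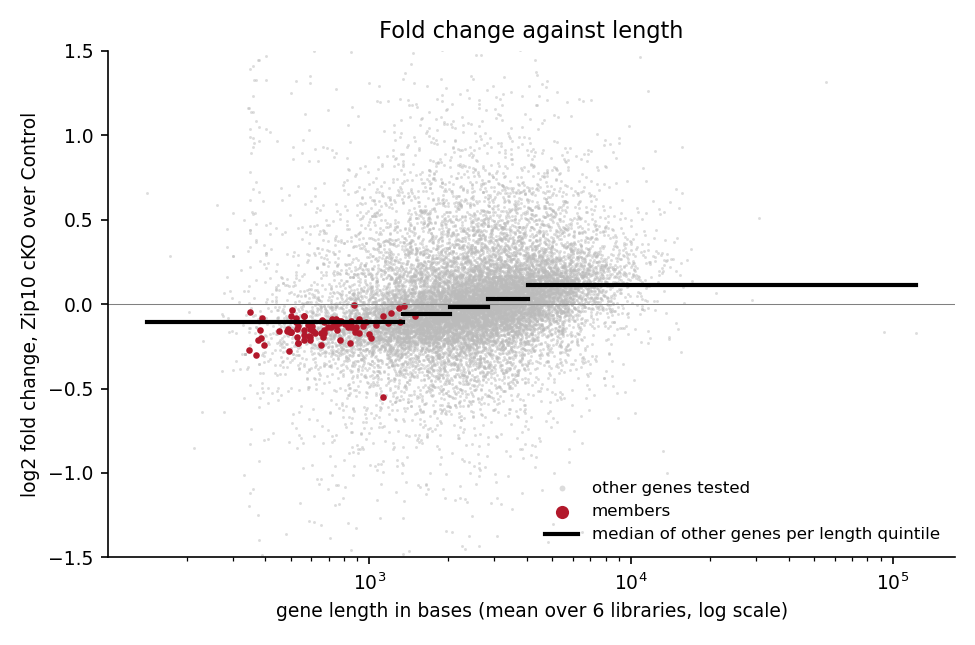
Log2 fold change, Zip10 cKO over Control, against gene length in bases (log scale) for all 16737 genes tested, with members in red and the median of the other genes in each of 5 length classes as bars; 68 genes beyond 1.5 in either direction are not drawn. The bars climb from -0.10 in the shortest class to 0.11 in the longest, and the members cluster at the short end, with a median of -0.15 for the 80 in the shortest class.

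Ribosomal proteins that the naming rule leaves out lay where the members did. Rps3a1, the functional Rps3a gene, had 1329, 1516 and 1503 CPM in Zip10 cKO and 1744, 1639 and 1540 CPM in Control, with separate groups and a log2 fold change of -0.18 ± 0.11. Fau, a ubiquitin-like protein fused to a small subunit protein, gave -0.19 ± 0.13. Rack1, a scaffold on the small subunit, gave -0.11 ± 0.13, Rpl22l1 -0.16 ± 0.15 and Rpl7l1 -0.06 ± 0.12. None of these was called by edgeR.

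Other genes of the translation machinery were counted in the same fit, and edgeR called 0 in each list. In that fit 50.6% of all genes tested were lower, and 1.98% were lower at an unadjusted p under 0.05. The share moved with length: 68.3% of the other genes in the shortest class were lower, with a median of -0.10. The lists were not matched for length, so their signs are not particular to translation genes. Mitochondrial ribosomal proteins, which build the separate ribosome of that organelle, were lower in 75 of 78 with a median of -0.14, and 1 had an unadjusted p under 0.05. Their per-library averages had another order: -0.07, 0.02 and -0.14 in Zip10 cKO and 0.26, -0.05 and -0.02 in Control, so Control 1 was again the highest but Zip10 cKO 3 the lowest. Mrps25 had 50.1, 56.4 and 53.4 CPM in Zip10 cKO and 70.3, 61.3 and 63.4 CPM in Control (log2 fold change -0.29 ± 0.10), Mrps15 gave -0.26 ± 0.13 and Mrpl4 -0.19 ± 0.09.

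Elongation factors and other TOP mRNAs were lower in 11 of 16, with a median of -0.12 and none at an unadjusted p under 0.05. Zip10 cKO libraries averaged -0.11, -0.03 and 0.01 and Controls 0.12, 0.01 and -0.00, which is the library order of the members at a smaller size. In this list Eif3k, an initiation factor subunit, gave -0.22 ± 0.11, Naca, which binds nascent chains, -0.17 ± 0.11, and Eef1g, of the elongation factor 1 complex, -0.15 ± 0.10.

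Ribosome biogenesis genes did not lean one way, with 14 of 26 lower, a median of -0.02 and 1 at an unadjusted p under 0.05. Myc, a transcription factor that drives ribosome production, had 117, 146 and 106 CPM in Zip10 cKO and 158, 155 and 143 CPM in Control (log2 fold change -0.31 ± 0.13, edgeR adjusted p = 0.747). Polr1c and Polr1a, subunits of RNA polymerase I, gave -0.16 ± 0.10 and 0.19 ± 0.14. Genes of mTORC1 and of TOP control were higher in 10 of 14 with a median of 0.07 and none at an unadjusted p under 0.05. Among the other genes of the longest length class only 25.7% were lower, with a median of 0.11. This list was not set against genes of its own length. Mtor, the kinase, had 82.6, 65.6 and 63.2 CPM in Zip10 cKO and 61.8, 58.7 and 52.6 CPM in Control (log2 fold change 0.29 ± 0.13), Deptor, its inhibitor, gave 0.29 ± 0.18 and Rps6kb1, an S6 kinase, 0.16 ± 0.09.

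**Figure D5:**
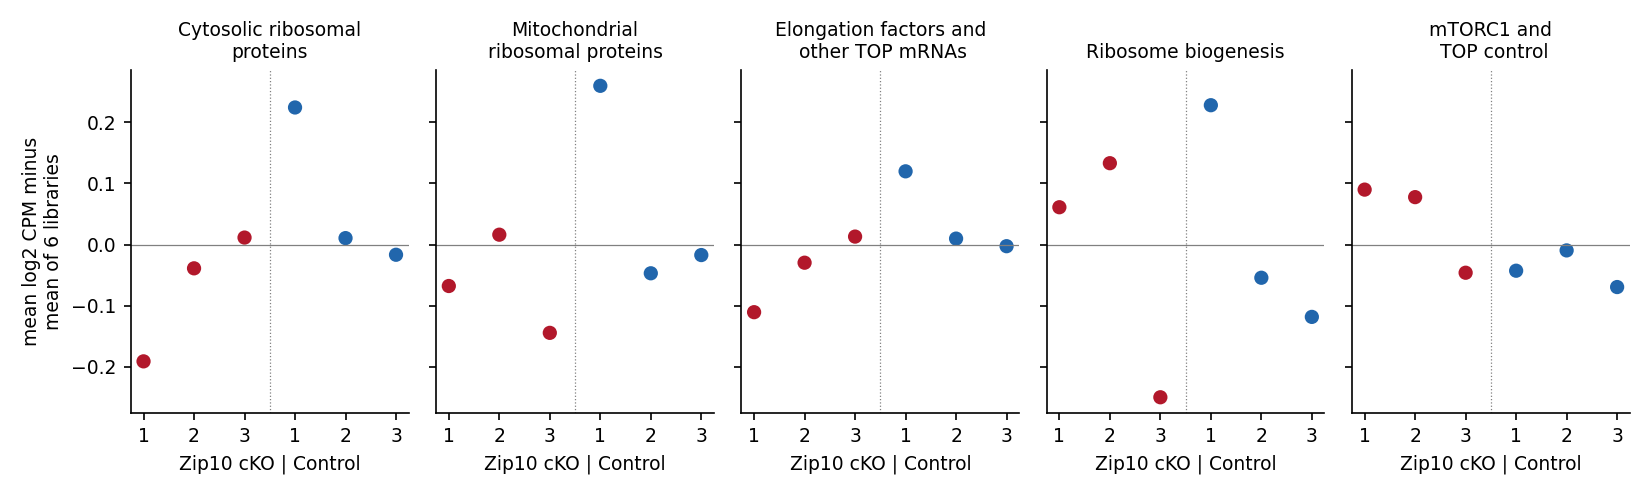
Mean log2 CPM of each list minus its mean over the 6 libraries, with Zip10 cKO libraries 1 to 3 left of the dotted line and Control libraries 1 to 3 right of it. Control 1 is the highest library in 4 lists, at 0.22 for the cytosolic ribosomal proteins and 0.26 for the mitochondrial ones, while the lowest is Zip10 cKO 1 at -0.19 for the cytosolic and Zip10 cKO 3 at -0.14 for the mitochondrial list.

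Marker levels also differed between libraries. Directions here are signs of log2 fold changes, and 50.6% of all genes tested had one below 0. Epithelial markers were lower in 7 of 7, at a summed 646 to 995 CPM in Zip10 cKO and 807 to 1232 CPM in Control. Zip10 cKO 1 was lowest and Control 1 highest for them, as for the ribosomal proteins. By these sums Zip10 cKO 1 was also highest for smooth muscle, stromal, macrophage and lymphocyte markers, and lowest for endothelial markers. For red blood cell markers Zip10 cKO 2 was highest and Control 3 lowest. Smooth muscle markers were higher in 6 of 6, at 10162 to 14340 CPM in Zip10 cKO and 5820 to 10861 CPM in Control, although the series design calls the tissue endometrium. Stromal markers were higher in 6 of 7 (11069 to 13102 CPM in Zip10 cKO and 8121 to 10384 CPM in Control) and macrophage markers in 5 of 5 (190 to 380 CPM in Zip10 cKO and 157 to 194 CPM in Control). Lymphocyte markers were higher in 5 of 6 (82.1 to 123 CPM in Zip10 cKO and 63.1 to 73.0 CPM in Control), red blood cell markers in 4 of 4 (187 to 240 CPM in Zip10 cKO and 112 to 209 CPM in Control) and endothelial markers in 0 of 5 (609 to 707 CPM in Zip10 cKO and 634 to 785 CPM in Control). Median log2 fold changes were -0.33 for epithelial, 0.55 for smooth muscle, 0.27 for stromal, 0.53 for macrophage, 0.63 for lymphocyte, 0.31 for red blood cell and -0.13 for endothelial markers, most of them larger in size than the -0.14 of the ribosomal protein genes. edgeR called 0 markers, and at an unadjusted p under 0.05 it gave 2 of 7 epithelial and 1 of 5 endothelial markers lower, and 3 of 5 macrophage, 3 of 7 stromal, 2 of 6 lymphocyte, 1 of 6 smooth muscle and 0 of 4 red blood cell markers higher. Over all genes tested the share lower at that level was 1.98%, and the share higher was not counted. The part of the cell mix in the members' values was not tested.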

How the data were processed

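Libraries were made from poly(A) mRNA with random priming, per the labels' protocols. RSEM 1.3.3 and STAR 2.7.10a, with fastp 0.23.2, edgeR 3.38.4, R 4.2.1 and build GRCm39, are listed in the submitters' processing notes. Strand setting and annotation release: not given in the sources used here. In each library's table the authors deposited expected counts (reads that fit several genes are split) and TPM, per the file headers. Genes were named from GENCODE M21 (GRCm38); 91.8% of IDs matched, and no gene coordinates were taken from it. Start windows came from RefSeq (GRCm38.p6).

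Expected counts were rounded, kept by filterByExpr (minimum count 10, minimum total 15), scaled by TMM and tested two-sided with the robust quasi-likelihood method of edgeR 4.0.16 in R 4.3.3, at a threshold of 0.05 after Benjamini-Hochberg adjustment across 16737 genes. Deviations use log2 CPM with a prior count of 3. The SE came from the F statistic. Alternatives used DESeq2 1.42.0 and limma 3.58.1. On simulated counts the edgeR test found 38% of changes of 1.5-fold, 70% of 2-fold, 100% of 4-fold and 94% of 8-fold, with 16 false calls. Changes as small as the members' median fold of 0.907 were not simulated. No 2 libraries of a group were duplicates (lowest chi-square over its degrees of freedom 19.3).

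Members, lists and tests were chosen with earlier results of these data known. Genes named were the 5 members at each end of log2 fold change, the 4 highest and lowest by TPM, the 3 shortest and longest, listed paralog pairs, stalk proteins, Rpsa, Rps6 and Rps27a, ribosomal proteins outside the rule and 3 genes per other list by p. Rps3a1 and members with separate groups were named after their values were seen. Values of some genes that this choice takes in are not reported here.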

Additional observations from a re-analysis of the deposited data

How the results depend on the processing

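No member was called under any alternative run, and all kept a negative median log2 fold change, from -0.20 to -0.07 with single libraries left out. With Zip10 cKO 1 and Control 1 both left out the median was -0.0090, with 46 of 82 lower, and the summed TPM difference was 1643, against -12361 with all libraries; single libraries left out gave -19547 to -5322. Members lower numbered 72 to 82 with single libraries left out, where 49.6% to 52.3% of all genes were lower. The count with all Zip10 cKO libraries below all Controls was 13 to 35 then (9.32% to 13.9% of all genes), and 11 to 18 under the other tools, scalings and filters (3.37% to 6.78% of all genes). Among members with whole counts 11 of 11 were lower and 2 had separate groups, as fewer members entered.

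Signs turned for some named members. On TPM with a pseudocount of 1 the log2 fold changes were Rps27l 0.040, Rpl3 0.058 and Rpl6l 0.063, and with 0.1 they were Rps27l 0.040, Rpl3 0.058 and Rpl6l 0.066. With the length trend removed they were Rpl5 0.029, Rpl3 0.034, Rpl6l 0.087 and Rps27a 0.0054. With both libraries left out they were Rpl37rt 0.0096, Rps27l 0.021, Rpl5 0.049, Rpl3 0.075, Rpl13a 0.082, Rpl41 0.015, Rps27a 0.076, Rps4x 0.0009 and Rpl39 0.054. With single libraries left out the ranges were Rpl37rt -0.11 to 0.0087, Rps27l -0.11 to 0.074, Rpl5 -0.071 to 0.049, Rpl3 -0.10 to 0.030, Rpl6l -0.079 to 0.054, Rpl13a -0.17 to 0.0094, Rps27a -0.18 to 0.023. The cause was not tested.

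The labels do not say that the replicate numbers pair the libraries. Deviations from the group means had correlations of 0.0916, 0.254 and 0.189 between same-numbered libraries. Libraries with different numbers were not compared, so these values cannot decide whether the numbers pair them. With the number as a replicate block the median was -0.14, with 82 lower and 0 called. Leaving out both libraries, adding Rps3a1, the whole-count members and counts of separate groups were chosen after the data were seen.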
